A study of Homo sapiens with 36 samples.

Results

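Death receptors are cell surface proteins of the TNF receptor superfamily that start apoptosis from outside the cell. The set described here holds 8 genes of this pathway, chosen by name: FAS, the TRAIL receptor genes TNFRSF10A, TNFRSF10B and TNFRSF10D, the TNF receptor 1 gene TNFRSF1A, the adaptor FADD, the initiator caspase CASP8 and its inhibitor CFLAR. The choice was made with earlier results of these data known. All 8 were listed in each of the 3 gene tables, which held 16431, 17035 and 16459 genes. RNA was sequenced from NT2/D1-A4 and 2102EP-C1, which are clonal derivatives of 2 human embryonal carcinoma lines selected for cisplatin resistance (1 clone of each line), in 3 experiments with 4 arms of 3 libraries (36 libraries). In the first and second experiments, NT2/D1-A4 or 2102EP-C1 cells made up an untreated arm, a cisplatin arm (0.5 µM, 6 h), a GSK-J4 arm (1 µM, 3 days) and an arm in which the GSK-J4 course came before the cisplatin. In the third, 2102EP-C1 cells held either the vector pLKO.1 with no insert or a pair of hairpin RNAs, one for KDM6A and one for KDM6B (sh6A+6B), and each kind received PBS or that same cisplatin dose. All cells were harvested 24 h after cisplatin. GSK-J4 inhibits KDM6A and KDM6B, the enzymes that remove the repressive polycomb mark H3K27me3 from histone H3. The comparisons ask what happens to the death receptor pathway when resistant cells meet cisplatin with and without this block.

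When Fas ligand or TRAIL binds its receptor, the intracellular death domain of the receptor recruits FADD, and FADD gathers caspase-8 molecules that activate each other and then cleave the executioner caspases. CFLAR encodes c-FLIP, which resembles caspase-8 and takes its place in the complex, and TNFRSF10D encodes a TRAIL receptor with a truncated death domain that binds ligand without passing on the death signal. TNF receptor 1 first assembles a survival complex through TRADD and RIPK1, and engages FADD and caspase-8 only in a later complex. FAS and TNFRSF10B are textbook targets of the transcription factor p53, which embryonal carcinoma cells usually carry unmutated.

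One stretch of FAS is shown because FAS was the member called in the most comparisons and because this stretch holds the closest match to the p53 consensus among the promoter windows of the members. The windows came from RefSeq on GRCh38.p14 and run from 250 bases before to 50 bases after an annotated start. Of the 8 members, 5 had entries, with 12 windows in all: FAS, TNFRSF1A, FADD, CASP8 and CFLAR. The consensus, which consists of 2 copies of a half-site set side by side (20 bases together) and is named here without being spelled because it needs ambiguity letters, was searched on both strands. The FAS window at chr10:88991181-88991480 on the plus strand is printed with the best match in capitals.
FAS window: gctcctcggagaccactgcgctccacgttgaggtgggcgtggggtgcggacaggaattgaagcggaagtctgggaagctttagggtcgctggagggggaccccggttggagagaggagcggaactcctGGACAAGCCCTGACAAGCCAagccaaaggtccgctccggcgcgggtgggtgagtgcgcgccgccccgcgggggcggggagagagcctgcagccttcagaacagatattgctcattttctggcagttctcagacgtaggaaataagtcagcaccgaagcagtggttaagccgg
This match has 2 mismatches, starts 122 bases before the annotated start of this window, and lies in intron 1 of the canonical FAS transcript of GENCODE release 44, 511 bases downstream of its first base (chr10:88991309-88991328). A match with at most 2 mismatches stood in 0.649% of the 35116 promoter windows of the table. That share is for single windows, while the FAS match was picked as the best of 12, so it understates how often such a pick would succeed. The best match of the 4 CFLAR windows had 3 mismatches, which 5.2% of all windows reached, and it lies in intron 2 of CFLAR. Another CFLAR window held a match with 4 mismatches. The best matches of the TNFRSF1A window, the FADD window and the 3 CASP8 windows had 5, 6 and 6 mismatches, and 70.5% of all windows hold a match with at most 5. For comparison, the best match of each of 3 members, FAS, CFLAR and TNFRSF1A, is set under the others with all letters in capitals.
FAS, 2 mismatches: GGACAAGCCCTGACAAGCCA
CFLAR, 3 mismatches: GGGATTCTTTAAGGAAGTTT
TNFRSF1A, 5 mismatches: AAAGAACGTTGGGCCTCCTC
These are matches of letters, and binding was not measured.

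Sequencing depth ran from 26.84 to 49.52 M reads (M, 1000000) in NT2/D1-A4 cells, from 30.25 to 53.65 M in the GSK-J4 experiment on 2102EP-C1 cells, and from 79.38 to 100.87 M in the knockdown experiment. In sh6A+6B cells without cisplatin, KDM6A fell by 1.01 (SE 0.03) and KDM6B by 1.01 (SE 0.05) on the log2 scale against pLKO.1, with adjusted p = 2.1e-18 and 1.8e-14. In the GSK-J4 experiments KDM6B was higher after GSK-J4, by 0.88 in NT2/D1-A4 and 0.81 in 2102EP-C1 cells. Of 12 embryonal carcinoma markers, 11 were listed in each table and 10, 11 and 11 of them had an untreated mean log2 CPM over 1, and TDGF1 was not listed. Their summed level ranged from 7203.6 to 7338.1 CPM in untreated NT2/D1-A4 libraries and from 5417.2 to 5826.5 CPM in those given GSK-J4 and cisplatin, and from 10025.3 to 10246.9 CPM against 7865.0 to 8287.7 CPM in 2102EP-C1 cells. In the knockdown experiment it ranged from 9479.2 to 9498.8 CPM in pLKO.1 libraries and from 8282.3 to 8330.8 CPM in sh6A+6B libraries given cisplatin. This embryonal carcinoma sum includes DNMT3B, the highest of these markers in untreated 2102EP-C1 and in pLKO.1 cells. The paper reports that GSK-J4 and the knockdown each lowered DNMT3B expression. How much of the fall in the sum comes from DNMT3B was not tested. Of 6 trophoblast markers, 2, 3 and 3 were listed, and CGA, CGB3 and PSG1 were listed in none of the tables. The summed trophoblast level ranged from 5.9 to 7.8 CPM in untreated NT2/D1-A4 libraries and from 13.4 to 14.7 CPM with both agents, from 5.9 to 6.3 against 9.7 to 13.4 CPM in 2102EP-C1 cells, and from 5.4 to 5.5 against 5.5 to 5.7 CPM in the knockdown experiment. Of the 6 endoderm and yolk sac markers, 2, 2 and 1 were listed, without SOX17, GATA6, FOXA2 and APOA1, and their summed level ran from 2.4 to 3.0 CPM in untreated and 4.7 to 4.9 CPM in doubly treated NT2/D1-A4 libraries and from 1.0 to 1.4 against 2.1 to 2.6 CPM in 2102EP-C1 cells. In pLKO.1 and doubly treated sh6A+6B libraries that sum was 1.0 to 1.2 against 0.8 to 1.0 CPM. Of 6 neural markers, 3, 2 and 2 were listed and SOX1, NEUROD1 and NEUROG1 were not, with TUBB3 the highest. The neural sum went from 25.7 to 28.7 CPM in untreated to 36.1 to 40.7 CPM in doubly treated NT2/D1-A4 libraries, while it was 12.8 to 13.6 against 13.0 to 14.6 CPM in 2102EP-C1 cells and 11.8 to 12.2 against 10.1 to 11.9 CPM in the knockdown experiment. Of 6 mesoderm and fibroblast markers, 4 were listed in each table, without COL3A1 and LUM, and the sum was 15.0 to 17.2 against 18.0 to 21.6 CPM in NT2/D1-A4, 36.3 to 38.5 against 44.4 to 48.7 CPM in 2102EP-C1 and 38.6 to 39.6 against 39.9 to 41.6 CPM in the knockdown experiment. Of 6 lymphocyte and myeloid markers, 1, 2 and 2 were listed, PTPRC and CD3E were in none of the tables, and every sum stayed at or under 3.4 CPM. The part of these shifts in the results below was not tested. In bulk RNA, fewer cells of a type and less RNA per cell cannot be told apart.

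The order of the members by level was not the same in the 2 clones before any treatment. Per kilobase of exon (all exons of a gene in GENCODE merged), the order in untreated NT2/D1-A4 cells was FADD, TNFRSF1A, CASP8, TNFRSF10A, TNFRSF10D, CFLAR, FAS and TNFRSF10B. FADD stood at 4.33 ± 0.04 log2 CPM per kb (SD, n = 3) and TNFRSF1A at 4.29 ± 0.02, and the libraries of these genes overlapped, while every other pair of neighbours was apart in all libraries. TNFRSF10A reached 1.67 ± 0.07 log2 CPM per kb and TNFRSF10B only -3.20 ± 0.20. In untreated 2102EP-C1 cells the order was TNFRSF1A, FADD, TNFRSF10B, CASP8, CFLAR, TNFRSF10D, TNFRSF10A and FAS, and no neighbours overlapped. There TNFRSF10B stood at 2.15 ± 0.09 and TNFRSF10A at -0.68 ± 0.16 log2 CPM per kb, so the 2 TRAIL receptors that carry a full death domain stood in opposite order in the 2 clones. The pLKO.1 cells had the same order as the untreated 2102EP-C1 cells, with TNFRSF10B at 2.22 ± 0.05 and TNFRSF10A at 0.06 ± 0.08. The tables were normalized separately, so levels in different clones were not tested against each other. The merged exons of FAS sum to 29.3 kb and its canonical transcript to 3.70 kb. With the length of the canonical transcript, FAS had 0.53 log2 CPM per kb in untreated NT2/D1-A4 and 0.16 in untreated 2102EP-C1 cells, and ranked the sixth and the seventh of the members. CASP8 then stood at 4.01 in untreated NT2/D1-A4 and 3.19 in untreated 2102EP-C1 cells, where it stood above TNFRSF10B, and TNFRSF1A stood above FADD in NT2/D1-A4 cells. TNFRSF10A stayed above TNFRSF10B in NT2/D1-A4 and below it in 2102EP-C1 cells with either length.

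FAS (chr10:88964050-89017059) encodes the receptor for Fas ligand. In NT2/D1-A4 cells it had 2.59, 2.41 and 2.26 log2 CPM in the untreated libraries and 2.89, 2.95 and 2.88 with cisplatin. After GSK-J4 it had 4.17, 4.1002 and 4.03, and with both agents 4.13, 4.48 and 4.51. Each treated arm lay above all untreated libraries, and the lowest doubly treated library lay within the range of GSK-J4 alone. FAS rose 1.40-fold with cisplatin (log2 0.49, SE 0.09, adjusted p = 0.0031), 3.21-fold with GSK-J4 (log2 1.68, SE 0.09, adjusted p = 5.7e-11) and 3.88-fold with both (log2 1.96, SE 0.09, adjusted p = 5e-12).

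In 2102EP-C1 cells FAS had 1.97, 2.07 and 2.10 log2 CPM in the untreated libraries and 2.53, 2.58 and 2.62 with cisplatin. GSK-J4 gave 3.14, 3.29 and 3.29, and both agents gave 4.03, 3.79 and 3.76. The 4 arms formed 4 steps with no overlap between any of them. FAS rose 1.45-fold with cisplatin (log2 0.53, SE 0.08, adjusted p = 0.00024), 2.29-fold with GSK-J4 (log2 1.196, SE 0.08, adjusted p = 1.9e-11) and 3.51-fold with both (log2 1.81, SE 0.08, adjusted p = 1.6e-15).

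Knockdown moved FAS less. Values were 2.40, 2.45 and 2.37 log2 CPM in pLKO.1 cells, 2.79, 2.95 and 2.87 in pLKO.1 cells with cisplatin, and 2.74, 2.92 and 2.73 in sh6A+6B cells. With both, the libraries had 3.60, 3.49 and 3.55. The cisplatin arm and the knockdown arm overlapped each other, and both lay between pLKO.1 and the combination. FAS rose 1.38-fold with cisplatin (log2 0.46, SE 0.06, adjusted p = 9e-07) and 2.20-fold with both (log2 1.14, SE 0.06, adjusted p = 2.5e-14). For knockdown alone the rise was 1.31-fold (log2 0.39, SE 0.06, adjusted p = 3.6e-06), just past the 1.3-fold limit. Without pLKO.1 replicate 3 the log2 change was 0.37 and without sh6A+6B replicate 2 it was 0.33, both under that limit.

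TNFRSF10A (chr8:23190452-23225102) encodes TRAIL receptor 1. In NT2/D1-A4 cells its libraries had 3.26, 3.27 and 3.14 log2 CPM untreated, 3.50, 3.63 and 3.58 with cisplatin, 4.51, 4.45 and 4.58 with GSK-J4, and 4.78, 4.69 and 4.58 with both. All treated libraries lay above all untreated ones. It rose 2.45-fold with GSK-J4 (log2 1.29, SE 0.06, adjusted p = 1.1e-11) and 2.75-fold with both (log2 1.46, SE 0.06, adjusted p = 1.6e-12). With cisplatin alone the difference was 1.28-fold (log2 0.35, SE 0.06, adjusted p = 0.0023), under the fold limit. Without cisplatin replicate 1 it was 0.39 on the log2 scale and passed.

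In 2102EP-C1 cells TNFRSF10A was scarce, with 61 to 140 reads per library. Its untreated libraries had 1.01, 0.70 and 0.90 log2 CPM, those with cisplatin 1.35, 1.64 and 1.52, those with GSK-J4 1.86, 1.39 and 1.67, and those with both 1.75, 1.81 and 1.86. No treated library fell within the untreated range. The rises were 1.55-fold with cisplatin (log2 0.63, SE 0.14, adjusted p = 0.0054), 1.71-fold with GSK-J4 (log2 0.77, SE 0.14, adjusted p = 7.4e-05) and 1.92-fold with both (log2 0.94, SE 0.14, adjusted p = 2e-06). Without cisplatin replicate 2 the cisplatin change was 0.57 on the log2 scale, with adjusted p = 0.053.

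Knockdown did not detectably move TNFRSF10A. It had 1.54, 1.58 and 1.70 log2 CPM in pLKO.1 cells and 1.62, 1.59 and 1.53 in sh6A+6B cells, a log2 difference of -0.03 (95% interval -0.17 to 0.12, adjusted p = 0.77), and these arms overlapped. With cisplatin, pLKO.1 cells had 1.93, 1.81 and 1.82 and sh6A+6B cells 1.90, 1.97 and 1.91. Both cisplatin arms lay above the 6 libraries without cisplatin, with log2 differences of 0.25 (adjusted p = 0.0065) in pLKO.1 cells and 0.34 (adjusted p = 0.00024) in sh6A+6B cells, each under the fold limit.

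TNFRSF10B (chr8:23020133-23069031) encodes TRAIL receptor 2, also called DR5. In 2102EP-C1 cells its untreated libraries had 4.39, 4.47 and 4.57 log2 CPM, those with cisplatin 4.65, 4.69 and 4.61, those with GSK-J4 5.25, 5.26 and 5.20, and those with both 5.57, 5.34 and 5.42. The 4 arms again did not overlap. It rose 1.69-fold with GSK-J4 (log2 0.76, SE 0.05, adjusted p = 2.4e-11) and 1.95-fold with both (log2 0.97, SE 0.05, adjusted p = 6.8e-14), and the cisplatin difference of 0.17 (SE 0.05) had adjusted p = 0.076. In the knockdown experiment pLKO.1 libraries had 4.54, 4.59 and 4.49, pLKO.1 with cisplatin 4.70, 4.80 and 4.76, sh6A+6B 4.97, 4.96 and 4.89, and sh6A+6B with cisplatin 5.09, 5.13 and 5.05. These arms formed 4 steps in that order. Knockdown raised it 1.32-fold (log2 0.40, SE 0.03, adjusted p = 7.5e-10) and knockdown with cisplatin 1.46-fold (log2 0.55, SE 0.03, adjusted p = 1.4e-12). The knockdown value also fell under the fold limit without pLKO.1 replicate 3, at 0.37. Cisplatin alone gave 0.21 (SE 0.03, adjusted p = 3.2e-05), within the limit.

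TNFRSF10B in NT2/D1-A4 cells was near the floor of the table. Untreated libraries held 13, 20 and 16 reads, cisplatin libraries 19, 14 and 11, GSK-J4 libraries 25, 52 and 60, and doubly treated libraries 35, 53 and 33. In log2 CPM these were -1.08, -0.85 and -0.69, then -0.52, -1.04 and -1.38, then -0.20, 0.17 and 0.52, and last 0.05, 0.55 and 0.39. Both arms with GSK-J4 lay above all untreated libraries, and the cisplatin arm overlapped them. The rises were 2.05-fold with GSK-J4 (log2 1.04, SE 0.25, adjusted p = 0.0019) and 2.31-fold with both (log2 1.21, SE 0.25, adjusted p = 0.00043). The deposited values carry a prior count of 3 reads, which shrinks changes at such low reads.

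TNFRSF10D (chr8:23135588-23164027) encodes the decoy receptor 2. In NT2/D1-A4 cells it had 2.21, 2.05 and 2.21 log2 CPM untreated, 2.19, 2.25 and 2.40 with cisplatin, 3.06, 2.89 and 3.07 with GSK-J4 and 3.07, 3.15 and 3.08 with both. The arms with GSK-J4 lay above the other arms, which overlapped. It rose 1.81-fold with GSK-J4 (log2 0.85, SE 0.09, adjusted p = 1.8e-07) and 1.93-fold with both (log2 0.95, SE 0.09, adjusted p = 3.5e-08). In 2102EP-C1 cells the values were 2.21, 2.35 and 2.40 untreated, 2.56, 2.51 and 2.67 with cisplatin, 2.90, 2.83 and 2.78 with GSK-J4 and 2.89, 3.05 and 2.88 with both. The 2 arms with GSK-J4 overlapped each other and lay above the cisplatin arm, which lay above the untreated arm. The rises there were 1.43-fold with GSK-J4 (log2 0.52, SE 0.09, adjusted p = 4.3e-05) and 1.53-fold with both (log2 0.62, SE 0.09, adjusted p = 1.5e-06). Under knockdown TNFRSF10D was the member that changed most with knockdown alone. It had 2.25, 2.47 and 2.35 in pLKO.1 cells, 2.53, 2.48 and 2.53 with cisplatin, 3.05, 3.03 and 2.95 in sh6A+6B cells and 3.08, 3.08 and 3.02 with both. Knockdown raised the decoy 1.57-fold (log2 0.65, SE 0.06, adjusted p = 6.2e-10) and both 1.63-fold (log2 0.70, SE 0.06, adjusted p = 8.7e-11), and all sh6A+6B libraries lay above all pLKO.1 libraries. Cisplatin alone passed the fold limit for the decoy in no experiment, with log2 differences of 0.13 (adjusted p = 0.4), 0.26 (adjusted p = 0.099) and 0.16 (adjusted p = 0.026).

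**Figure D1:**
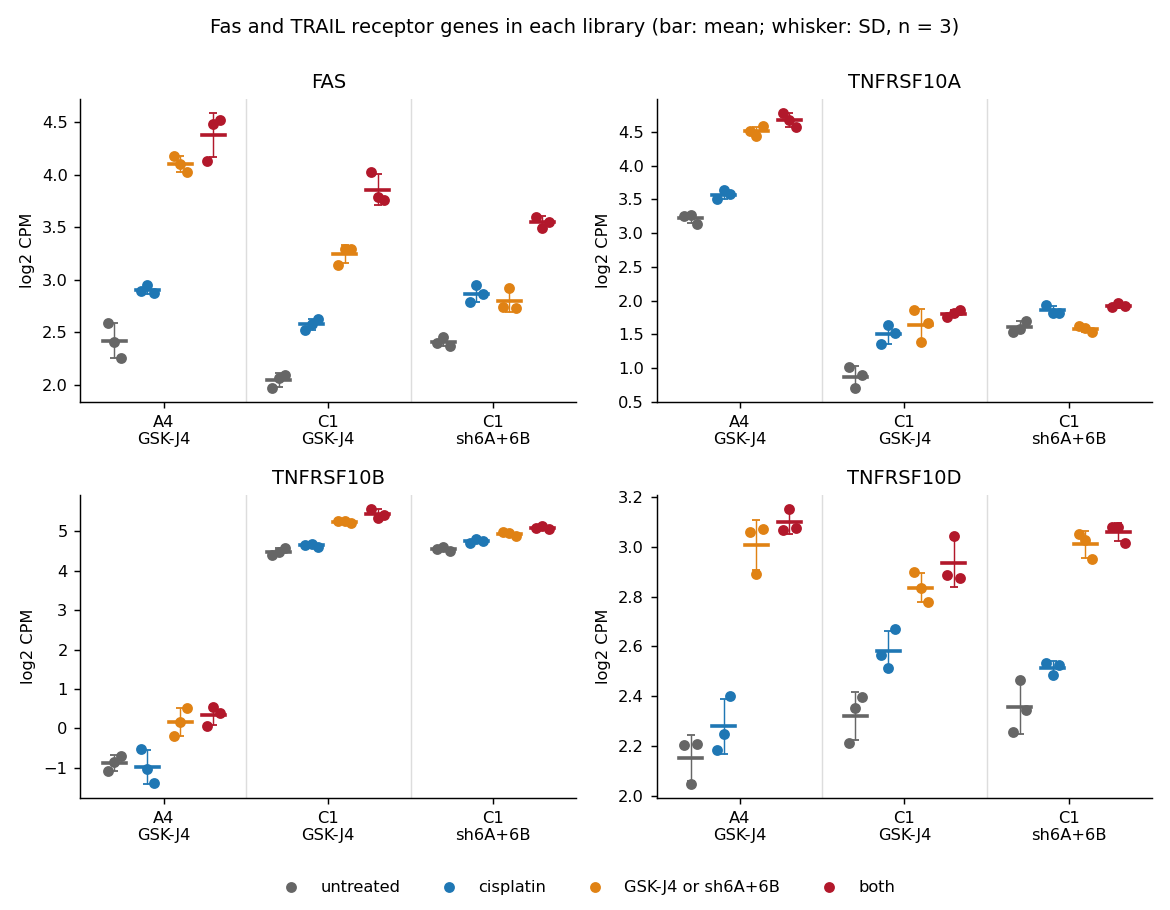
Log2 CPM (y axis) of FAS, TNFRSF10A, TNFRSF10B and TNFRSF10D in each library (points), with the mean and SD of 3 libraries, for NT2/D1-A4 cells (A4) and 2102EP-C1 cells (C1) in the 4 arms of each experiment (x axis). FAS climbs in 4 steps in 2102EP-C1 cells, and TNFRSF10B lies at or under 0.55 in NT2/D1-A4 libraries and at or above 4.39 in all 2102EP-C1 libraries.

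TNFRSF1A (chr12:6328771-6342076), for TNF receptor 1, moved within narrow bounds. In NT2/D1-A4 cells it had 6.36, 6.35 and 6.39 log2 CPM untreated and 6.64, 6.64 and 6.59 with GSK-J4. These arms did not overlap, and the difference of 0.26 (SE 0.04, adjusted p = 2.3e-05) was under the fold limit. In sh6A+6B cells TNFRSF1A was instead lower, at 6.34, 6.46 and 6.44 against 6.62, 6.60 and 6.63 in pLKO.1 cells. That difference of -0.21 (SE 0.03, adjusted p = 1.2e-06) was also under the limit. In 2102EP-C1 cells GSK-J4 gave a log2 difference of 0.08 (95% interval 0.01 to 0.16, adjusted p = 0.081). Cisplatin alone gave -0.01 (-0.09 to 0.07) in NT2/D1-A4, 0.01 (-0.06 to 0.09) in 2102EP-C1 and -0.11 (-0.17 to -0.06) in pLKO.1 cells, the last with adjusted p = 0.0024.

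FADD (chr11:70203296-70207390), the adaptor, had a mean below the untreated mean in every treated arm, by less than the fold limit. The largest difference was that of 2102EP-C1 cells with both agents, where it had 4.67, 4.86 and 4.85 log2 CPM against 5.10, 5.08 and 5.07 untreated. The arms did not overlap, and the log2 difference was -0.29 (SE 0.06, adjusted p = 2e-04). For NT2/D1-A4, GSK-J4 gave -0.11 (SE 0.04, adjusted p = 0.038), and in pLKO.1 cells cisplatin gave -0.14 (SE 0.03, adjusted p = 0.00037). Of the exonic bases of FADD, 59.2% are shared with an unnamed gene on the opposite strand.

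CASP8 (chr2:201233463-201287711), the initiator caspase, stayed within the fold limit in every comparison. In NT2/D1-A4 cells it had 5.47, 5.40 and 5.40 log2 CPM untreated and 5.27, 5.23 and 5.25 with GSK-J4, apart in all libraries, a difference of -0.17 (SE 0.05, adjusted p = 0.0052). With cisplatin alone the difference was 0.08 (SE 0.05, adjusted p = 0.35), and the arms overlapped. In 2102EP-C1 cells it had 4.56, 4.56 and 4.68 untreated, 4.78, 4.84 and 4.83 with cisplatin, 4.79, 4.66 and 4.76 with GSK-J4 and 4.94, 4.87 and 4.83 with both. Here the arms with cisplatin lay above the untreated arm, with differences of 0.22 (SE 0.05, adjusted p = 0.013) for cisplatin alone and 0.28 (SE 0.05, adjusted p = 5.4e-05) for both, while the GSK-J4 arm overlapped it, at 0.14 (SE 0.05, adjusted p = 0.039). Knockdown alone gave 0.00 (95% interval -0.07 to 0.06), and cisplatin in pLKO.1 cells gave 0.15 (SE 0.03, adjusted p = 0.00048).

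CFLAR (chr2:201116164-201176687), the caspase-8 inhibitor, had 4.49, 4.60 and 4.52 log2 CPM in untreated NT2/D1-A4 cells, 4.76, 4.70 and 4.72 with cisplatin and 4.76, 4.79 and 4.83 with GSK-J4. Both treated arms lay above the untreated arm, by 0.19 (SE 0.05, adjusted p = 0.017) and 0.26 (SE 0.05, adjusted p = 0.00021). In sh6A+6B cells CFLAR was lower, at 5.54, 5.53 and 5.53 against 5.71, 5.71 and 5.74 in pLKO.1 cells, with no overlap and a difference of -0.19 (SE 0.02, adjusted p = 3.2e-07). In 2102EP-C1 cells the GSK-J4 difference was 0.03 (95% interval -0.06 to 0.12), and both agents gave 0.16 (SE 0.04, adjusted p = 0.0028). All of these were under the fold limit.

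**Figure D2:**
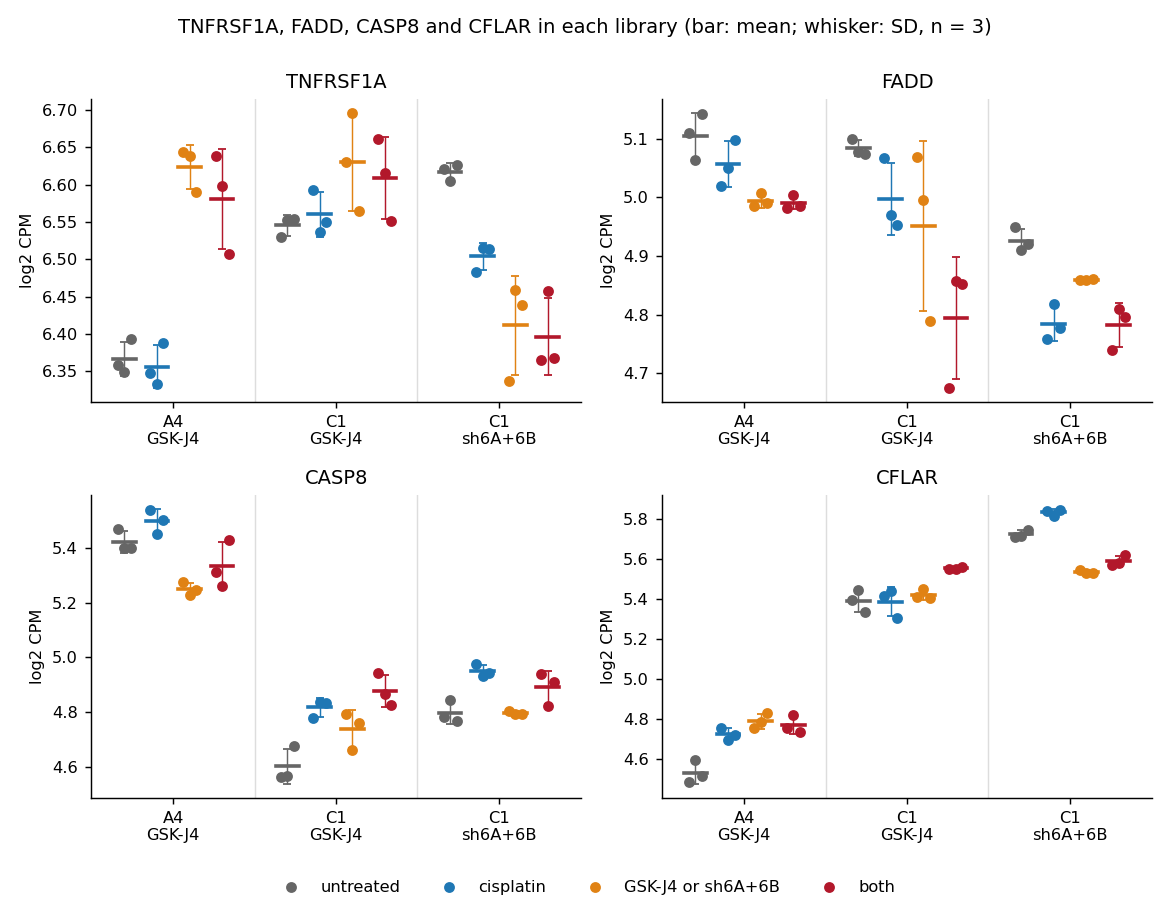
Log2 CPM (y axis) of TNFRSF1A, FADD, CASP8 and CFLAR in each library (points), with the mean and SD of 3 libraries, for NT2/D1-A4 cells (A4) and 2102EP-C1 cells (C1) in the 4 arms of each experiment (x axis). The axes span less than in the receptor plot. CFLAR lies lower in sh6A+6B than in pLKO.1 libraries, and higher in NT2/D1-A4 libraries with GSK-J4 than without treatment.

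Calls needed both a fold over 1.3 and an adjusted p under 0.05, and the count of members called is set beside the percent of all genes called higher. Among NT2/D1-A4 cells 1 of 8 members was called higher with cisplatin (2.05% of all genes), 4 of 8 with GSK-J4 (13.8%) and 4 of 8 with both (15.9%). The 4 were FAS and the 3 TRAIL receptors in both comparisons. In 2102EP-C1 cells 2 of 8 were called higher with cisplatin (0.881%), 4 with GSK-J4 (7.79%) and 4 with both (12.8%), again FAS and the 3 TRAIL receptors where 4 were called. Among pLKO.1 and sh6A+6B cells 1 of 8 was called higher with cisplatin (2.53%), 3 with knockdown (6.34%) and 3 with both (8.51%), namely FAS, TNFRSF10B and TNFRSF10D for the latter comparisons. TNFRSF1A, FADD, CASP8 and CFLAR were called in no comparison of the 3 experiments. The comparisons of an experiment share their untreated libraries, so they do not count as separate evidence. Members were chosen with earlier results of these data known, so the counts beside these shares are a description and no test.

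With no limit on the fold, members passed the adjusted p alone more often, and so did genes at large. For NT2/D1-A4, 3, 8 and 7 members passed with cisplatin, GSK-J4 and both, against 9.43%, 48.3% and 54% of all genes in either direction. In 2102EP-C1 cells 3, 5 and 7 passed, against 4.08%, 35.2% and 53%. For knockdown, 8, 5 and 8 passed, against 36.1%, 52.8% and 62.6%.

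**Figure D3:**
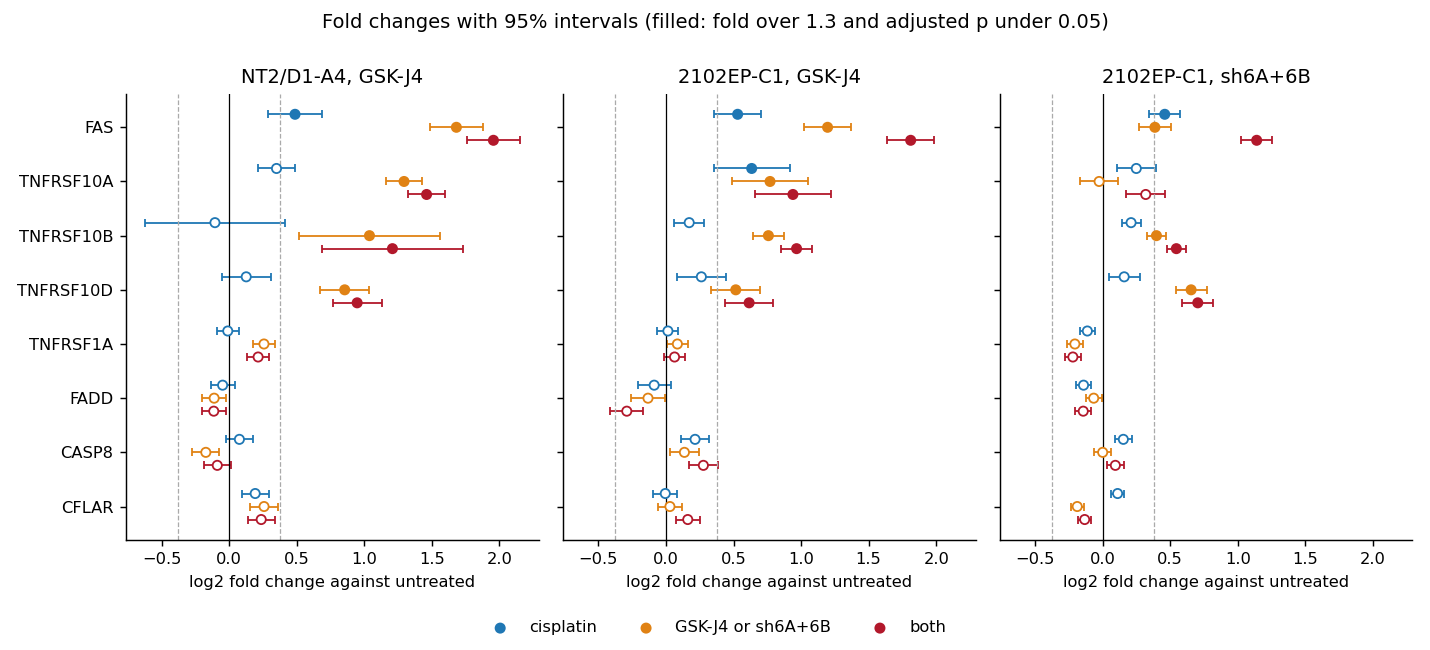
Log2 fold change against untreated cells (x axis) of the 8 members (y axis) with 95% intervals, for cisplatin, GSK-J4 or sh6A+6B, and both, in the 3 experiments. Filled points passed a fold of 1.3 (dashed lines) and an adjusted p of 0.05. Filled points occur for FAS and the TRAIL receptor genes, and the points of TNFRSF1A, FADD, CASP8 and CFLAR lie between the dashed lines.

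The effect of cisplatin was also measured inside pretreated or knockdown cells. FAS went from 2.80 ± 0.11 log2 CPM in sh6A+6B cells to 3.55 ± 0.05 with cisplatin (SD, n = 3), a rise of 1.69-fold (log2 0.75, SE 0.06, adjusted p = 1.8e-10). Following GSK-J4, 2102EP-C1 cells showed a rise of 1.53-fold with cisplatin (log2 0.62, SE 0.08, adjusted p = 2.6e-05). After GSK-J4 in NT2/D1-A4 the FAS difference was 0.27 (SE 0.09, adjusted p = 0.17) and the arms overlapped. Without combination replicate 1, the lowest of its arm, the difference was 0.40 with adjusted p = 0.015. FAS was the only member called here, which makes 1 of 8 in 2102EP-C1 cells (0.916% of all genes called higher) and 1 of 8 in sh6A+6B cells (2.48%). Among NT2/D1-A4 comparisons of this kind limma-trend called 0 of 8 members (0.158%), voom on the recovered reads also called 0, and 2 of 8 had an unadjusted p under 0.05. With no limit on the fold the counts were 0, 3 and 5 of 8, against 1.26%, 15.7% and 44.8% of all genes.

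Whether the cisplatin effect itself changed was tested as the difference between these effects, the interaction. For FAS in the knockdown experiment it was 0.29 (95% interval 0.13 to 0.46, adjusted p = 0.0052), that is, a larger rise in sh6A+6B than in pLKO.1 cells by less than the fold limit. For FAS in 2102EP-C1 cells with GSK-J4 it was 0.08 (-0.16 to 0.33, adjusted p = 0.77), and in NT2/D1-A4 cells -0.21 (-0.49 to 0.07, adjusted p = 0.78). TNFRSF10A in 2102EP-C1 cells had -0.47 (-0.86 to -0.07, adjusted p = 0.2) and CFLAR in NT2/D1-A4 cells -0.21 (-0.36 to -0.07, adjusted p = 0.48). Neither passed. With the fold limit 0 of 8 members were called by limma-trend in each experiment, against 0.0426%, 0.857% and 3.77% of all genes in either direction. Voom also called 0, and 1, 2 and 2 members had an unadjusted p under 0.05. Without the fold limit FAS was the only member past the adjusted p, in the knockdown experiment, where 35.1% of all genes passed, against 0.0426% in NT2/D1-A4 and 2.38% in 2102EP-C1 cells.

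**Figure D4:**
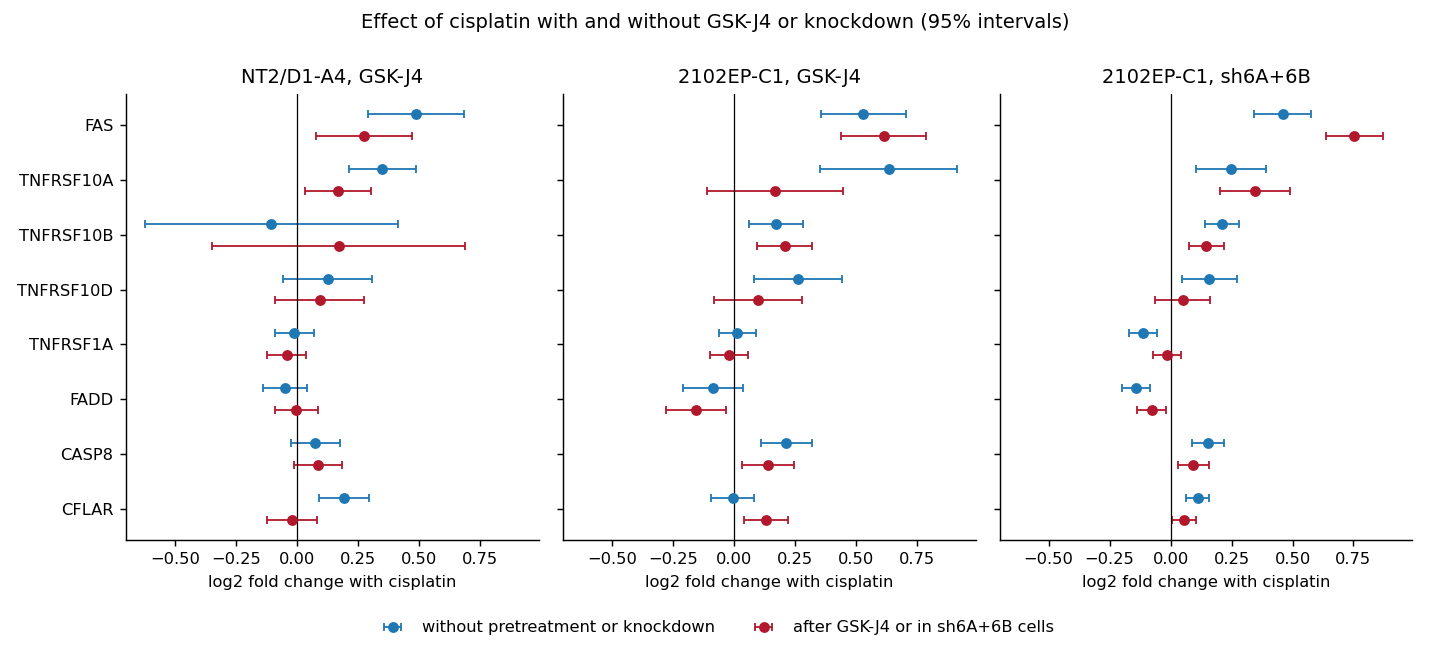
Log2 fold change with cisplatin (x axis) of the 8 members (y axis) with 95% intervals, without pretreatment or knockdown and after GSK-J4 or in sh6A+6B cells, in the 3 experiments. In the knockdown experiment the FAS interval in sh6A+6B cells lies above that in pLKO.1 cells, 0.75 against 0.46.

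Balances between members were taken as differences of log2 CPM within a library, which need no scaling between libraries. Gene length is not taken into account, so the changes between arms are read and not the sign of a balance. CASP8 minus CFLAR set the initiator caspase against its inhibitor. In NT2/D1-A4 cells it went from 0.89 ± 0.09 untreated to 0.46 ± 0.05 with GSK-J4 (SD, n = 3), a change of -0.43 with no overlap, since CASP8 was lower and CFLAR higher. In sh6A+6B cells it went the other way, from -0.92 ± 0.05 to -0.74 ± 0.004, a change of 0.19 with no overlap. In 2102EP-C1 cells GSK-J4 changed it by 0.11, and the arms overlapped. With cisplatin alone it changed by -0.12 in NT2/D1-A4 and by 0.22 in 2102EP-C1 cells, with no overlap in either, and by 0.04 in pLKO.1 cells, with overlap. Both treatments together changed it by -0.325 in NT2/D1-A4 and by 0.23 in the knockdown experiment, with no overlap, and by 0.12 in 2102EP-C1 cells, with overlap. TNFRSF10A minus TNFRSF10D, an agonist receptor against the decoy, went from 1.07 ± 0.14 to 1.51 ± 0.05 after GSK-J4 in the NT2/D1-A4 clone and from -0.75 ± 0.12 to -1.43 ± 0.01 with knockdown, changes of 0.44 and -0.68, with no overlap in either. In 2102EP-C1 cells with GSK-J4 it changed by 0.25, with overlap. TNFRSF10B minus TNFRSF10D changed by 0.24 with GSK-J4 and by -0.26 with knockdown in 2102EP-C1 cells, from 2.16 ± 0.04 to 2.40 ± 0.04 and from 2.19 ± 0.09 to 1.93 ± 0.01, again with no overlap. For NT2/D1-A4 the arms of this difference overlapped. Each treated arm was set against the untreated arm with an exact two-sided permutation test, which with 3 against 3 libraries cannot give a p under 0.1. Of the 9 comparisons per experiment, those without overlap had exact permutation p = 0.1, and after BH adjustment p = 0.18 in NT2/D1-A4, 0.225 in 2102EP-C1 and 0.15 in the knockdown experiment.

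**Figure D5:**
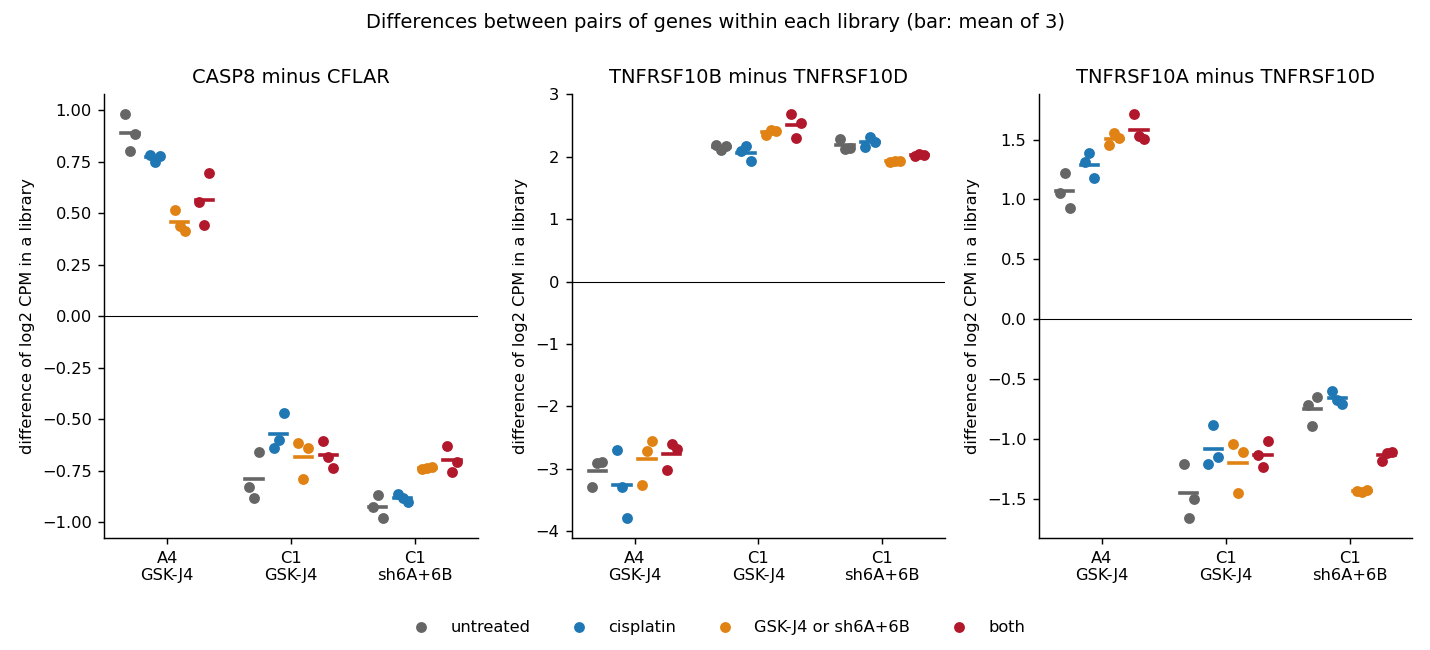
Difference of log2 CPM between gene pairs within each library (y axis; points, with the mean of 3 as a bar), for CASP8 minus CFLAR, TNFRSF10B minus TNFRSF10D and TNFRSF10A minus TNFRSF10D, in NT2/D1-A4 (A4) and 2102EP-C1 (C1) cells in 4 arms (x axis). CASP8 minus CFLAR is above 0 in NT2/D1-A4 and below 0 in 2102EP-C1 libraries. The values are not divided by gene length, so their sign does not show which gene is higher. Per kb of merged exons CASP8 stood above CFLAR in untreated cells of both clones. It had 2.57 against 0.04 log2 CPM per kb in NT2/D1-A4 and 1.745 against 0.90 in 2102EP-C1 cells.

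Other genes of the pathway were read from lists. Among 7 death ligand genes, 1, 3 and 3 were measured in the 3 tables. TNFSF15, the ligand of death receptor 3, rose with both agents by 1.83 (SE 0.31) in NT2/D1-A4 cells, from a mean of only -2.28 log2 CPM, by 0.93 (SE 0.14) in 2102EP-C1 and by 1.15 (SE 0.10) in sh6A+6B cells with cisplatin, on the log2 scale. TNFSF10, the gene for TRAIL, rose in sh6A+6B cells with cisplatin by 0.76 (SE 0.14) against pLKO.1, from a mean of -0.17 to 0.59 log2 CPM. With GSK-J4 or knockdown alone 1 ligand was called higher in each experiment, TNFSF15 each time, against 13.8%, 7.79% and 6.34% of all genes. In NT2/D1-A4 cells TNFSF15 was the only ligand measured.

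Of 14 further receptors of the superfamily 12 were measured in each table. With GSK-J4 alone 3 were called higher and 2 lower in NT2/D1-A4 cells, where 13.8% and 6.48% of all genes were, with a list median of 0.20 beside 0.01 over all genes. In 2102EP-C1 cells 4 were called higher and 1 lower (7.79% and 3.12% of all genes), with a median of -0.07. Knockdown alone called 4 higher and 1 lower (6.34% and 5.74% of all genes), with a median of 0.22. Over all genes the medians in 2102EP-C1 cells and the knockdown experiment were -0.002 and -0.005. The gene next in kind to the members is TNFRSF10C, which encodes decoy receptor 1, a TRAIL receptor without a death domain. It rose with cisplatin in all 3 experiments, by 0.79 (SE 0.13), 0.62 (SE 0.11) and 0.45 (SE 0.07). With GSK-J4 it rose by 2.04 (SE 0.13) in NT2/D1-A4 and 1.19 (SE 0.11) in 2102EP-C1 cells, more than any TRAIL receptor among the members in either. EDA2R, the receptor of ectodysplasin A2, rose by 1.01 (SE 0.05) in GSK-J4-treated NT2/D1-A4 cells and by 0.89 (SE 0.04) in 2102EP-C1 cells with both agents. NGFR, the low-affinity neurotrophin receptor, fell by 0.62 (SE 0.03) with knockdown on the log2 scale. TNFRSF25, the gene for death receptor 3, was called lower with both agents in NT2/D1-A4 (log2 -0.51, SE 0.20) and 2102EP-C1 cells (-0.94, SE 0.20). Its untreated means there were 0.27 and 0.39 log2 CPM. In sh6A+6B cells with cisplatin it was not called (-0.14, SE 0.13). With both, 5, 3 and 4 of this list were called higher in the 3 experiments, against 15.9%, 12.8% and 8.51% of all genes. Called lower were 2, 3 and 1, against 9.56%, 9.77% and 7.5%.

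Few genes of the TNF receptor 1 complex were called. Of 18 measured in NT2/D1-A4 cells, GSK-J4 called 1 higher, the kinase gene RIPK1 (0.40, SE 0.06), and 1 lower, the adaptor gene TRAF2 (-0.49, SE 0.06), against 13.8% and 6.48% of all genes. TRAF2 was also the 1 gene called in 2102EP-C1 cells with both agents (-0.49, SE 0.07), of 19 measured, where 9.77% of all genes were called lower. In the knockdown experiment 6 of 18 passed the adjusted p with knockdown alone and 10 of 18 with both, each within the fold limit, where 52.8% and 62.6% of all genes passed the adjusted p.

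Among 15 modulators of Fas and caspase-8, CASP10, the closest relative of caspase-8, rose by 0.73 (SE 0.07) after GSK-J4 in NT2/D1-A4, and in sh6A+6B cells it rose with cisplatin by 0.40 (SE 0.04). With both agents 4 of 14 measured were called higher and 2 lower in NT2/D1-A4 cells, against 15.9% and 9.56% of all genes, with a list median of 0.10 (0.01 over all genes). In 2102EP-C1 cells 4 of 15 were called higher, against 12.8% of all genes, with a median of 0.31 (-0.0005 over all genes). Both counts include LGALS3, for galectin-3, at 0.96 (SE 0.20) and 1.52 (SE 0.18), and CAV1, for caveolin-1, at 0.60 (SE 0.06) and 0.89 (SE 0.06). With knockdown and cisplatin 1 was called higher and 2 lower (8.51% and 7.5% of all genes), among them the heat shock gene HSPA1A (-0.86, SE 0.04). Of 15 genes for other caspases and for the link to mitochondria, all measured, 1 was called higher after GSK-J4 in NT2/D1-A4, against 13.8% of all genes. This was BID (0.58, SE 0.09), whose product is cut by caspase-8 and carries the signal to mitochondria. With both agents BID (0.65, SE 0.09) and APAF1 (0.44, SE 0.04) were called higher in NT2/D1-A4 cells, against 15.9% of all genes. In 2102EP-C1 cells DFFA (0.44, SE 0.03) and APAF1 (0.41, SE 0.04) were, against 12.8%. These counts are near or under the shares of all genes. Of 3 necroptosis genes 1 was measured, MLKL, called higher with cisplatin in NT2/D1-A4 cells (0.77, SE 0.21) from a mean of -0.40 log2 CPM. There 2.05% of all genes were called higher.

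The patterns most like those of FAS and TNFRSF10B were ranked by Pearson correlation over the 36 libraries, each centred on the untreated mean of its experiment, among 11459 and 11460 genes with a mean log2 CPM of at least 1 in all tables. The points share treatment arms and untreated libraries, so the correlations are descriptive. The 5 genes closest to FAS were MDM2 (0.977), BTG2 (0.976), KITLG (0.974), TP53INP1 (0.970) and EDA2R (0.970). MDM2 encodes the ubiquitin ligase of p53, and BTG2 and TP53INP1 are also known p53 targets. The 5 closest to TNFRSF10B were CHIC2 (0.920), SCARB2 (0.918), ACSS3 (0.916), RIOK3 (0.912) and TTC39B (0.910). TNFRSF10B itself was under the limit of 1 in NT2/D1-A4 cells, with 11 to 60 reads per library, so its ranking is less certain than that for FAS. FAS ranked 32nd for TNFRSF10B, with 0.892, and the correlations of FAS with TNFRSF10A and TNFRSF10D were 0.890 and 0.857. Those of FAS with CASP8 and FADD were -0.01 and -0.68.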

How the data were processed

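The 3 tables deposited by the authors hold log2 CPM (counts per 1000000 reads) for 36 libraries in 3 experiments. According to the study's methods, the authors trimmed reads of stranded mRNA libraries, mapped them on GRCh38.p14 (STAR), assigned them to genes (featureCounts), filtered genes on CPM and normalized with TMM. Tool versions, the strand setting of the counting and the handling of reads that match several genes are not given in the sources used here, so values of TRAIL receptor paralogs, and of members that share exonic bases with another gene (TNFRSF10A-DT 9.09% of TNFRSF10A, RHOBTB2 7.52% of TNFRSF10B, ACTA2 1.32% and STAMBPL1 0.57% of FAS), are less certain. Reads were recovered from the deposited values with a prior count of 3, and 100% came out within 0.05 of a whole number. Replicate libraries differed by more than counting noise (chi-square per gene of 1.68 to 26.3), so no library was counted as a copy.

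Each table was fitted with limma-trend (limma 3.58.1, R 4.3.3) on the log2 values of its 12 libraries, one mean per arm and no block, with two-sided tests and Benjamini-Hochberg (BH) adjustment over all genes of the table. Samples were grouped by their labels. The design text calls the replicates biological. The limma-trend p-values rest on 1 estimate of the spread between replicates per gene. It is shared by the 4 arms of 3 such samples and drawn toward the trend over all genes. Each experiment used 1 clone, so the p-values do not cover differences between clones. The 3 exact permutation tests per gene pair used scipy. On simulated data with 200 changed genes the fit was tested before use. Gene names and positions came from RefSeq (GRCh38.p14) and exons from GENCODE release 44. Named genes were the 8 members, KDM6A and KDM6B, at most the 3 called genes of each list with the largest change per comparison, and the 5 genes most like FAS and TNFRSF10B. Members and lists were chosen with earlier results of these data known. Alternatives were a filter on a mean log2 value over 1, only the arms compared, a replicate block, a prior count of 0.5, library size without TMM, voom, no fold limit, each library left out, and 1 transcript length per gene.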

Additional observations from a re-analysis of the deposited data

Results flagged for a closer look

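FAS was flagged because the effect of cisplatin differed between sh6A+6B and pLKO.1 cells by the test of that difference. The log2 change with cisplatin was 0.75 in sh6A+6B cells and 0.46 in pLKO.1 cells, a difference of 0.294 (SE 0.08, adjusted p = 0.0052, limma-trend). It was 0.255 to 0.356 when each library was left out in turn, with adjusted p from 0.00065 to 0.02. The difference of 0.294 was under the fold limit, and 35.1% of all genes passed the adjusted p of this test.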

How the results depend on the processing

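Of the 28 calls of members, 25 held under each alternative that gave a value. The exceptions were FAS and TNFRSF10B with knockdown alone and TNFRSF10A with cisplatin in 2102EP-C1 cells, each lost when 1 library was left out. The filter on a mean log2 value over 1 removed TNFRSF10B from the NT2/D1-A4 table, so that its calls with GSK-J4 and with both had no value there and 3 members were called in each. Over the libraries left out, the count of members called ran from 1 to 2 with cisplatin in NT2/D1-A4, 0 to 1 with cisplatin after GSK-J4 in NT2/D1-A4, 1 to 2 with cisplatin in 2102EP-C1, and 1 to 3 with knockdown. With no limit on the fold, the counts became 3, 8 and 7 for cisplatin, GSK-J4 and both in NT2/D1-A4, against 9.43%, 48.3% and 54% of all genes. In 2102EP-C1 cells they became 7 for both and 3 for cisplatin after GSK-J4, against 53% and 15.7%. In the knockdown experiment they became 8, 5 and 8 for cisplatin, knockdown and both, against 36.1%, 52.8% and 62.6%. There, 5 passed with cisplatin in sh6A+6B cells and 1 by the interaction, against 44.8% and 35.1%. For libraries with the same replicate number, correlations of their deviations were over 0.1 in 3, 1 and 5 of 18 pairs per experiment. For unlike numbers they were over 0.1 in 5, 3 and 5 of 36 pairs. In the knockdown experiment the highest was 0.31 for same and 0.17 for unlike numbers, so pairing there is not excluded. With the replicate block the counts were 1, 4, 4, 0 and 0 for NT2/D1-A4, 2, 4, 4, 1 and 0 for 2102EP-C1, and 1, 3, 3, 1 and 0 in the knockdown experiment, as without it.

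Differences near 0 changed sign under scaling by library size only: TNFRSF1A with cisplatin (0.013), FADD with cisplatin after GSK-J4 (0.002) and the CASP8 interaction (-0.009) in NT2/D1-A4, CFLAR with cisplatin in 2102EP-C1 cells (0.006) and CASP8 with knockdown (0.016). With voom CASP8 with knockdown had 0.001. Ranges over the libraries left out that crossed 0 were, in NT2/D1-A4 cells, -0.336 to 0.095 for TNFRSF10B and -0.027 to 0.002 for TNFRSF1A with cisplatin, -0.01 to 0.347 for TNFRSF10B and -0.01 to 0.004 for FADD with cisplatin after GSK-J4, and -0.038 to 0.046, -0.092 to 0.028 and -0.061 to 0.004 for the interactions of CASP8, TNFRSF10D and TNFRSF1A. TNFRSF10B minus TNFRSF10D with cisplatin ran from -0.508 to 0.031. In 2102EP-C1 cells they were -0.033 to 0.037 for CFLAR and -0.002 to 0.026 for TNFRSF1A with cisplatin, -0.054 to 0.012 for TNFRSF1A with cisplatin after GSK-J4, and 0.0 to 0.133 and -0.026 to 0.086 for the interactions of FAS and TNFRSF10B. In the knockdown experiment they were -0.016 to 0.023 for CASP8 and -0.061 to 0.021 for TNFRSF10A with knockdown, and -0.053 to 0.009 for TNFRSF1A with cisplatin in sh6A+6B cells. The cause was not tested. Depth limits TNFRSF10B in NT2/D1-A4 cells, with 11 to 60 reads per library. With 1 transcript length per gene, 17 of 24 levels per length moved by more than 1 SD. Those of FADD and TNFRSF10D could not move, because their merged and canonical lengths are equal (1708 and 3535 bases).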
